A study of Mus musculus with 8 samples.

Results

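The genes described here encode the cytosolic machinery that detects DNA and RNA inside a cell: Cgas, Sting1, Tbk1, Rigi (listed on the array under its older symbol Ddx58), Ifih1, Mavs, Zbp1, Trex1, Samhd1 and Adar. They were taken by symbol from the deposited table of log2 signals, with the brightest transcript cluster (the set of probes for 1 transcript unit) standing for each gene. Of the 10 genes, 9 had a cluster that named them alone, out of 22180 genes with such a cluster in the whole data set. The only cluster naming Trex1, the exonuclease that degrades cytosolic DNA, also names Atrip, so no value is given for Trex1. All 9 measured genes passed the filter on dim signals, which kept 13998 genes that reached the median of their array on at least 2 arrays.

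The RNA came from mouse bone marrow natural killer (NK) cells, and 8 Affymetrix Mouse Gene 2.0 ST arrays fell into 4 groups of 2 biological replicates. Marrow was first depleted of T cells by their CD90. Day 0 cells were freshly isolated, and day 4 cells were the adherent killer cells after culture in 1000 IU/mL of interleukin-2 (IL-2), the cytokine that drives NK cell growth. The KU55933 day 9 cells received IL-2 again on day 4 together with 7.5 µM KU55933, an inhibitor of ATM, the kinase that signals DNA double-strand breaks. Day 9 cells received IL-2 again on day 4 and no inhibitor. A vehicle is named in the protocol, but no label shows which arrays, if any, received it. The labels give no strain, age or sex, do not say whether marrow was pooled, and do not say that the replicates came from separate mice, so p-values measure the spread between these arrays, which may be partly technical.

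Cells detect misplaced DNA mainly through cGAS, which makes a cyclic dinucleotide on binding DNA, and STING, the receptor of that messenger in the endoplasmic reticulum. RNA with viral features is detected by the helicases RIG-I (Rigi) and MDA5 (Ifih1), which signal through MAVS on mitochondria, and both routes meet at the kinase TBK1, which activates the transcription factor IRF3 and so type I interferon. ZBP1 binds nucleic acids in the Z conformation and can start necroptosis, whereas TREX1, SAMHD1 and ADAR restrain sensing by removing DNA, removing deoxynucleotides and editing RNA.

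All 8 NK cell markers on the list (Ncr1, Klrb1c, Klrk1, Eomes, Tbx21, Il2rb, Itga2 and Prf1) lay above the array median in every group. Markers of other cells passed this bar too. On both day 0 arrays it was passed by 10 of 10 macrophage and monocyte, 5 of 5 platelet, 9 of 11 dendritic cell and 7 of 9 B cell markers. By the test described below, 3 NK cell markers rose and 4 fell for day 9 against day 0, with Prf1 at 2.31 and Itga2 at -2.83 on the log2 scale. Across the 13998 genes, the 2 arrays of a group correlated at r = 0.976 (day 0) to 0.994 (day 4). Transcripts listed as markers of other marrow cells moved with time in culture. Whether the NK cells themselves expressed them was not tested. The ranges of summed linear signal that follow are in the order day 0, day 4, KU55933 day 9 and day 9. The 9 measured B cell markers summed to 1455 to 1574, 331.2 to 504.1, 103.6 to 106 and 112.8 to 117.6, and 5 megakaryocyte and platelet markers to 2183 to 2417, 129.4 to 170.9, 81.53 to 84.55 and 77.29 to 83.23. The 11 measured dendritic cell markers summed to 7118 to 7180, 3124 to 3311, 2596 to 2616 and 2445 to 2598, and 10 macrophage and monocyte markers to 3336 to 3757, 3060 to 3404, 2005 to 2124 and 2504 to 2722. The B cell, platelet and dendritic cell sums were thus highest in fresh cells. A sum follows its brightest genes, which for the macrophage and monocyte list at day 9 were Ly6c2 and Ccr2 (means 10.31 and 9.82). For day 9 against day 0, 3 genes of that list rose, Ly6c2 and Ccr2 among them, and 7 fell. Lyz2 was 38.6-fold and Csf1r 15.6-fold lower. The 10 neutrophil markers, which peaked at day 4, summed to 186.4 to 234.5, 802.4 to 808.1, 132.8 to 138 and 109 to 117. The 8 measured T cell markers summed to 677.6 to 807.2, 809.6 to 846.5, 1545 to 1678 and 1378 to 1397. At least 7 of them lay above the array median in every group despite the depletion. For day 9 against day 0, 3 of them rose (Cd28, Cd3g and Cd3e) and 4 fell (Cd4, Cd5, Cd8a and Cd8b1). Erythroid markers could hardly be judged, with 3 of 7 on a cluster of their own and sums of 48.93 to 64.93, 33.55 to 40.84, 41.38 to 42.75 and 45.26 to 47.02. The part of these cells in the results below was not tested. In bulk RNA, fewer cells of a type and less RNA per cell cannot be told apart.

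Differences were tested with limma in a model of all 8 arrays, and a gene was called where the Benjamini-Hochberg adjusted p over the 13998 genes was below 0.05. Comparisons that use the same arrays are not independent, and their values are given side by side. After 4 days of IL-2, 6 of the 9 sensing genes were called, against 59.9% of all genes tested: Cgas, Sting1 and Mavs rose (37.5% of all genes rose) and Ifih1, Zbp1 and Samhd1 fell (22.4% fell). The arrays of day 4 and day 0 did not overlap for 9 of 9 genes, against 78.6% of all genes. For day 9 against day 0, 7 of 9 were called, against 58.0% of all genes. Cgas, Sting1, Rigi and Mavs rose (36.0% of all genes rose) and Zbp1, Samhd1 and Adar fell (22.0% fell). More than 50% of the genes tested were called in each of these comparisons, so the counts say nothing particular about the sensing genes.

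Centring each array on its median over the tested genes moved every log2 difference by -0.35 for day 4 against day 0, by -0.23 for day 9 against day 0, by 0.12 for day 9 against day 4 and by -0.30 for KU55933 day 9 against day 0. With that centring the split of all genes became 27.8% rising and 41.0% falling for day 4 against day 0, and 29.1% and 33.1% for day 9 against day 0. Among the sensing genes it left 3 rising and 4 falling for day 4 against day 0, and 2 rising and 5 falling for day 9 against day 0. A change smaller than its shift and opposite in sign to it therefore has no settled direction. This applies to Rigi and Tbk1 for day 4 against day 0. It also applies to Mavs for day 9 against day 4 and to Ifih1 for KU55933 day 9 against day 0.

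Between day 4 and day 9 the sensing genes that were called all moved down. For day 9 against day 4, 5 of 9 were called, against 27.8% of all genes: Cgas, Sting1, Tbk1, Zbp1 and Samhd1 fell (15.6% of all genes fell), and 0 of 9 rose (12.2% rose). The share of all genes called depended on the dim filter: at percentile 75 it was 47.3% of the 8360 genes kept. The count of 5 of 9 stands nearer to that share. The median log2 difference of the 9 genes was -0.40, against -0.0052 over all genes. The call count was 2 of 9 without day 4 replicate 2, where 16.0% of all genes were called, and 3 of 9 without day 9 replicate 2, where 19.9% were. Centring left 4 called, all of them lower, and turned the split of all genes to 17.6% rising and 12.3% falling.

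**Figure D1:**
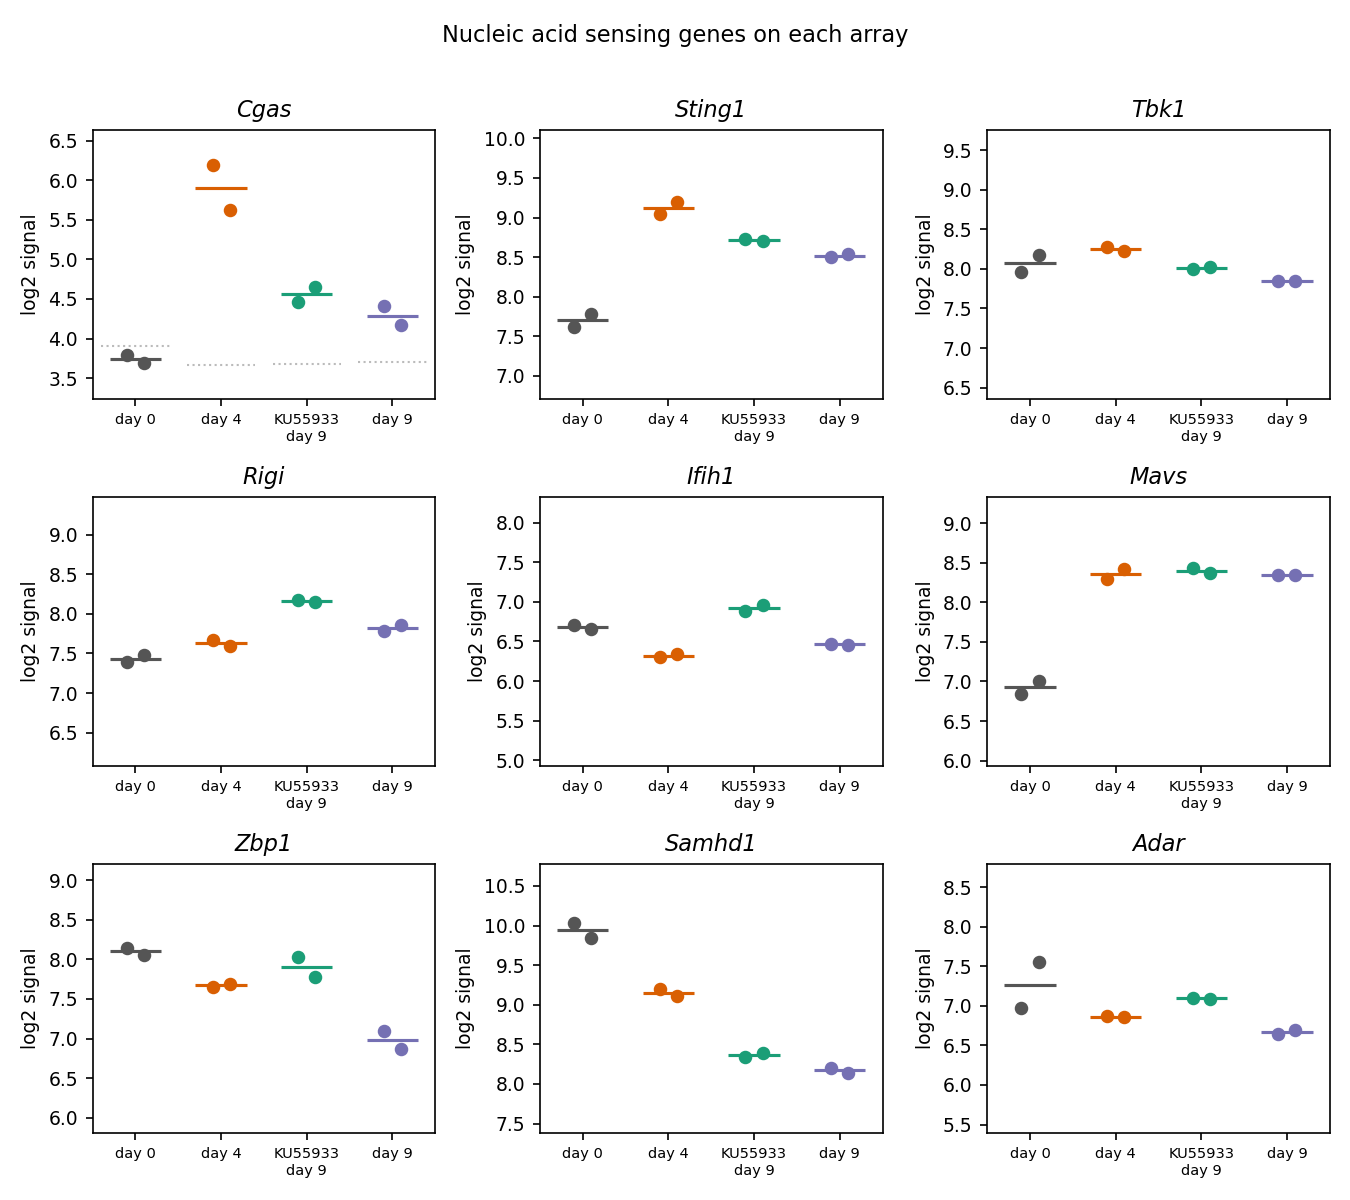
Log2 signal (vertical axis) of the 9 measured sensing genes on each of the 8 arrays, by group (horizontal axis): points are arrays, the coloured bar is the group mean, and dotted lines mark the array medians where they fall in the panel. Each panel has its own vertical range of the same height, and levels are not comparable between panels. Cgas is at 6.19 and 5.62 on the day 4 arrays and below the array median on both day 0 arrays, and Zbp1 is lowest on the 2 day 9 arrays.

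Cgas, the sensor that opens the DNA route, had the widest range over the groups among the 9 genes. Its log2 signal was 3.80 and 3.69 at day 0, 6.19 and 5.62 at day 4, 4.47 and 4.65 with KU55933 at day 9, and 4.41 and 4.17 at day 9. Both day 0 values lay below their array medians of 3.915 and 3.895, so the gene was dim in fresh cells, and the day 4 arrays stood above all the others. At day 4 Cgas was at least 4.00-fold higher than in day 0 cells, counted against the array median (fitted log2 difference 2.17 ± 0.19, SE, n = 2 arrays each, adjusted p = 3.93e-05). At day 9 it was 3.07-fold lower than at day 4 (log2 difference -1.62, adjusted p = 0.000699).

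At day 9 Cgas was at least 1.31-fold higher than at day 0, counted against the array median (adjusted p = 0.0412). Leaving out a single day 0, day 9 or KU55933 day 9 array lost this call, with adjusted p of 0.0784 and 0.129 without day 0 replicate 1 or 2, 0.186 and 0.0564 without day 9 replicate 1 or 2, and 0.0599 without either KU55933 day 9 array. Centring also lost it (adjusted p = 0.185). With KU55933 the gene was 1.35 lower on the log2 scale than at day 4 (adjusted p = 0.00182) and at least 1.58-fold higher than at day 0 (adjusted p = 0.0072, and 0.0516 without KU55933 day 9 replicate 2). In order of level, day 4 came first, then KU55933 day 9 and day 9, whose difference was not called, and then day 0.

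Sting1, which encodes the receptor downstream of cGAS, followed the same order of groups. It stood at 7.62 and 7.78 at day 0, 9.04 and 9.20 at day 4, 8.73 and 8.70 with KU55933 at day 9, and 8.50 and 8.54 at day 9. The 4 groups did not overlap, and the day 0 arrays were the lowest. Sting1 rose 2.67-fold at day 4 relative to day 0 (log2 difference 1.42 ± 0.12, SE, adjusted p = 2.48e-05), and at day 9 it was 0.82 above day 0 (adjusted p = 0.000525). It was lower at day 9 than at day 4 by a log2 difference of -0.60 (adjusted p = 0.00674, and 0.0638 without day 4 replicate 2). With KU55933 it was 0.41 below day 4 and 1.01 above day 0 on the log2 scale, with adjusted p of 0.0375 and 0.000155. The first of these calls was lost when any array of day 4, day 9 or KU55933 day 9 was left out, with adjusted p between 0.0643 (either day 9 array) and 0.225 (day 4 replicate 2).

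Tbk1, the kinase shared by the DNA and RNA routes, had the narrowest range of group means among the 9 genes. It measured 7.96 and 8.18 at day 0, 8.27 and 8.23 at day 4, 8.0 and 8.02 with KU55933 at day 9, and 7.85 and 7.85 at day 9. Day 4 arrays were the highest and day 9 arrays the lowest, with day 0 and KU55933 arrays between them and overlapping each other. Neither time point was called against day 0: the log2 difference was 0.18 at day 4 (95% interval -0.09 to 0.44, adjusted p = 0.213) and -0.22 at day 9 (-0.49 to 0.05, adjusted p = 0.136). The day 4 difference passed the threshold without day 0 replicate 2 (adjusted p = 0.0466) and turned to -0.17 with centring, and the day 9 difference passed it without day 0 replicate 1 (0.0317). With centring and with quantile normalization Tbk1 was lower at day 9 than at day 0, by log2 differences of -0.45 (adjusted p = 0.00761) and -0.61 (0.00149). Tbk1 was lower at day 9 than at day 4 (log2 difference -0.40 ± 0.11, SE, adjusted p = 0.036), a call lost with centring (0.0864) and when any array of day 4, day 9 or KU55933 day 9 was left out (0.0651 for either KU55933 array to 0.171 for day 4 replicate 1). In order of level, no difference between 2 neighbouring groups was called.

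Mavs, the mitochondrial adaptor of the RNA route, rose with activation and stayed high. Its signal was 6.84 and 7.01 at day 0, 8.29 and 8.42 at day 4, 8.43 and 8.37 with KU55933 at day 9, and 8.34 and 8.35 at day 9. All 6 cultured arrays lay more than 1 log2 unit above both day 0 arrays, and the day 4 arrays overlapped those of both day 9 groups. The rise against day 0 was 2.70-fold at day 4 (log2 difference 1.43 ± 0.11, SE, adjusted p = 2.15e-05), 2.77-fold with KU55933 at day 9 (adjusted p = 2.02e-05) and 2.67-fold at day 9 (adjusted p = 2.52e-05). For day 9 against day 4 the difference was -0.02, with a 95% interval of -0.28 to 0.25 (adjusted p = 0.939).

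The RNA helicases that feed MAVS differed less from day 0 than Mavs did in all 3 comparisons. Rigi, which recognises RNA ends carrying triphosphates, measured 7.39 and 7.49 at day 0, 7.67 and 7.59 at day 4, 8.18 and 8.14 with KU55933 at day 9, and 7.78 and 7.85 at day 9. The arrays of the 4 groups did not overlap, and the KU55933 arrays were the highest. Rigi was 0.38 higher on the log2 scale at day 9 than at day 0 (adjusted p = 0.0156). That call was lost without day 9 replicate 2 (0.0837) and with centring (0.21). The day 4 difference of 0.19 was not called (adjusted p = 0.152) and became -0.15 with centring. With KU55933 the gene was 0.53 above day 4 (adjusted p = 0.00877, with 0.0745 without day 4 replicate 2 and 0.0603 without KU55933 day 9 replicate 1) and 0.72 above day 0 (adjusted p = 0.000611).

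Ifih1, the sensor of long double-stranded RNA, went the other way at day 4. It stood at 6.70 and 6.65 at day 0, 6.30 and 6.35 at day 4, 6.89 and 6.96 with KU55933 at day 9, and 6.47 and 6.45 at day 9. The groups did not overlap, with KU55933 arrays highest and day 4 arrays lowest. The log2 difference of day 4 from day 0 was -0.36 ± 0.10 (SE, adjusted p = 0.0182). It no longer passed the threshold without day 4 replicate 1 (0.0998) or day 4 replicate 2 (0.0644). With KU55933 Ifih1 was 0.60 above day 4 (adjusted p = 0.00411), and its difference from day 0 was 0.25 (adjusted p = 0.0708), which became -0.050 with centring. The day 9 difference from day 0 was -0.22 (adjusted p = 0.11), and it was called with centring (-0.44, adjusted p = 0.00858) and with quantile normalization (-0.52, 0.00424). With the deposited scaling, no difference between neighbours in the order KU55933 day 9, day 0, day 9, day 4 was called. The same held for Rigi in the order KU55933 day 9, day 9, day 4, day 0. For both genes the arrays of these groups did not overlap, so an uncalled difference here is not one within the replicate gap.

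Promoter sequences are shown for the genes whose windows held a motif of interferon-activated transcription. Whether a match goes with a response to interferon was not tested. RefSeq windows of 300 bases (250 before to 50 after a start, build GRCm38.p6) were searched on both strands for GAAANNGAA, the core of the interferon-stimulated response element. Windows of 7 of the sensing genes were searched, 9 windows in all, with 3 starts for Adar. No window was available for Zbp1, and those of Sting1 and Trex1 were left out of the search. Of 32851 windows in the table, 8.56% held the core. It was found for 3 genes. Ifih1 held it at +33 to +41 and, on the opposite strand, at -112 to -104. Rigi held it on the opposite strand at +4 to +12, and the window of one Adar start held it at -249 to -241 and at +34 to +42. In the windows of Cgas, Tbk1, Mavs, Samhd1 and the other Adar starts there was no match, which says only that these letters are not in those windows. A match describes the letters and not a binding site. Each sequence is given 5′ to 3′ on the gene's strand, with capitals marking each match on either strand.
Ifih1, chr2:62646206-62646505, minus strand: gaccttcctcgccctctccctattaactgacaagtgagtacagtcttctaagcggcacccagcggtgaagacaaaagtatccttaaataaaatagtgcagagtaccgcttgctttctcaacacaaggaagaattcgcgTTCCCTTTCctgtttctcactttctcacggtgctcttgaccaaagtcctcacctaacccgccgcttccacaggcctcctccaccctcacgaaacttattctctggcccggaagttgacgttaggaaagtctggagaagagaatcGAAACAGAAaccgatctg
Rigi, chr4:40239776-40240075, minus strand: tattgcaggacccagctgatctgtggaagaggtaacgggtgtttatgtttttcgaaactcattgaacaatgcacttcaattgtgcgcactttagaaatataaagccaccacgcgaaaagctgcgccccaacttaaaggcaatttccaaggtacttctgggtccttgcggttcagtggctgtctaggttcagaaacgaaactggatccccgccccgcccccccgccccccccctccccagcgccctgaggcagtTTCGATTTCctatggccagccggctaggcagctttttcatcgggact
Adar, chr3:89730468-89730767, plus strand: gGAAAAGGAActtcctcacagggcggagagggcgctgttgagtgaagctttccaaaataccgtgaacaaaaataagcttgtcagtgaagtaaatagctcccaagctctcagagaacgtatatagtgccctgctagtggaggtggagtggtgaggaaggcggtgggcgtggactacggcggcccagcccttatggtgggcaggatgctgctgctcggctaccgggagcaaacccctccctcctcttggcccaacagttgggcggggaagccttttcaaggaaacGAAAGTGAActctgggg

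Zbp1, the sensor of nucleic acids in the Z conformation, was lowest at day 9 and was the one sensing gene called between the day 9 cells with and without the inhibitor. It measured 8.15 and 8.06 at day 0, 7.65 and 7.69 at day 4, 8.03 and 7.78 with KU55933 at day 9, and 7.10 and 6.87 at day 9. Both day 9 arrays lay below the other 6, and the KU55933 arrays lay between those of day 4 and day 0. Zbp1 fell with time: the log2 difference was -0.43 for day 4 against day 0 (adjusted p = 0.0244), -1.12 for day 9 against day 0 (2.17-fold lower, adjusted p = 0.000207) and -0.69 for day 9 against day 4 (adjusted p = 0.00712). The first of these lost its call without day 0 replicate 1 (0.0735), day 4 replicate 1 (0.109) or day 4 replicate 2 (0.0802). The last lost it without day 4 replicate 2 (0.0547) or day 9 replicate 2 (0.0511). With KU55933 its differences from day 4 (0.23, adjusted p = 0.263) and from day 0 (-0.20, adjusted p = 0.241) were not called. The difference from day 0 was called with centring (-0.50, adjusted p = 0.022) and with quantile normalization (-0.62, 0.00944). In order of level, day 0 came first, then KU55933 day 9 and day 4, with neither step called, and day 9 came last.

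Samhd1, a deoxynucleotide triphosphate hydrolase, was lower at each later time. Its signal was 10.03 and 9.85 at day 0, 9.20 and 9.11 at day 4, 8.34 and 8.39 with KU55933 at day 9, and 8.20 and 8.14 at day 9. The groups did not overlap, and the 2 groups of day 9 were the lowest. Samhd1 fell by 0.79 on the log2 scale for day 4 against day 0 (adjusted p = 0.000528) and by 0.98 for day 9 against day 4 (adjusted p = 0.000597). For day 9 against day 0 it was 3.40-fold lower (log2 difference -1.77 ± 0.11, SE, adjusted p = 8.51e-06). With KU55933 it was 0.79 below day 4 and 1.57 below day 0, with adjusted p of 0.00183 and 1.38e-05. In order of level, day 0 came before day 4 and day 4 before KU55933 day 9. The difference between the last neighbours, KU55933 day 9 and day 9, was not called.

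Adar, which edits adenosine to inosine in double-stranded RNA, had the widest replicate gap at day 0. It measured 6.97 and 7.55 at day 0, 6.87 and 6.86 at day 4, 7.10 and 7.09 with KU55933 at day 9, and 6.64 and 6.69 at day 9. The cultured arrays without inhibitor lay below both day 0 arrays, and the KU55933 arrays lay between those of day 0. The decrease was called for day 9 against day 0 (log2 difference -0.60 ± 0.18, SE, adjusted p = 0.0216), but not without day 9 replicate 1 (0.0852) or day 9 replicate 2 (0.0632). For day 4 against day 0 the difference was -0.40 (95% interval -0.81 to 0.02, adjusted p = 0.09). It passed the threshold without day 0 replicate 1 (adjusted p = 0.00146) and with centring (0.00483). No difference between 2 neighbours in the order day 0, KU55933 day 9, day 4, day 9 was called.

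The comparison of KU55933 with no inhibitor at day 9 asks which transcripts differed with the inhibitor present during the second stretch of IL-2 culture. Whether a difference came through ATM was not tested. Zbp1 was 1.89-fold higher with KU55933 (log2 difference 0.92 ± 0.13, SE, n = 2 arrays each, adjusted p = 0.0317). It was the only sensing gene called, 1 of 9, against 0.986% of all genes (0.750% of all genes rose and 0.236% fell). All 9 differences were above 0, as were those of 53.5% of all genes, and the arrays of the groups did not overlap for 9 of 9 genes, against 48.1% of all genes. The median log2 difference of the 9 genes was 0.27, against 0.02 over all genes. At an unadjusted p below 0.05 there were 4 of 9 genes, against 12.2% of all genes.

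The call for Zbp1 depended on single arrays. Its adjusted p was 0.0924 without either day 4 array, 0.149 without day 9 replicate 1, 0.143 without day 9 replicate 2, 0.23 without KU55933 day 9 replicate 1 and 0.168 without KU55933 day 9 replicate 2. The log2 difference itself lay between 0.79 and 1.05 when an array was left out. Centring and quantile normalization gave adjusted p of 0.0623 and 0.0628.

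The helicases of the RNA route and the RNA editor had intervals above 0 without passing the adjusted threshold. Ifih1 differed by 0.46 (95% interval 0.22 to 0.70, adjusted p = 0.107), Rigi by 0.34 (0.09 to 0.59, adjusted p = 0.249) and Adar by 0.43 (0.01 to 0.84, adjusted p = 0.396). The DNA route and the shared kinase showed smaller differences from day 9. The values were 0.27 for Cgas (-0.18 to 0.72, adjusted p = 0.65), 0.20 for Sting1 (-0.07 to 0.47, adjusted p = 0.569) and 0.16 for Tbk1 (-0.11 to 0.43, adjusted p = 0.649). Samhd1 differed by 0.19 (-0.07 to 0.46, adjusted p = 0.572) and Mavs by 0.05 (-0.21 to 0.32, adjusted p = 0.903), and the Mavs value became -0.016 with centring.

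**Figure D2:**
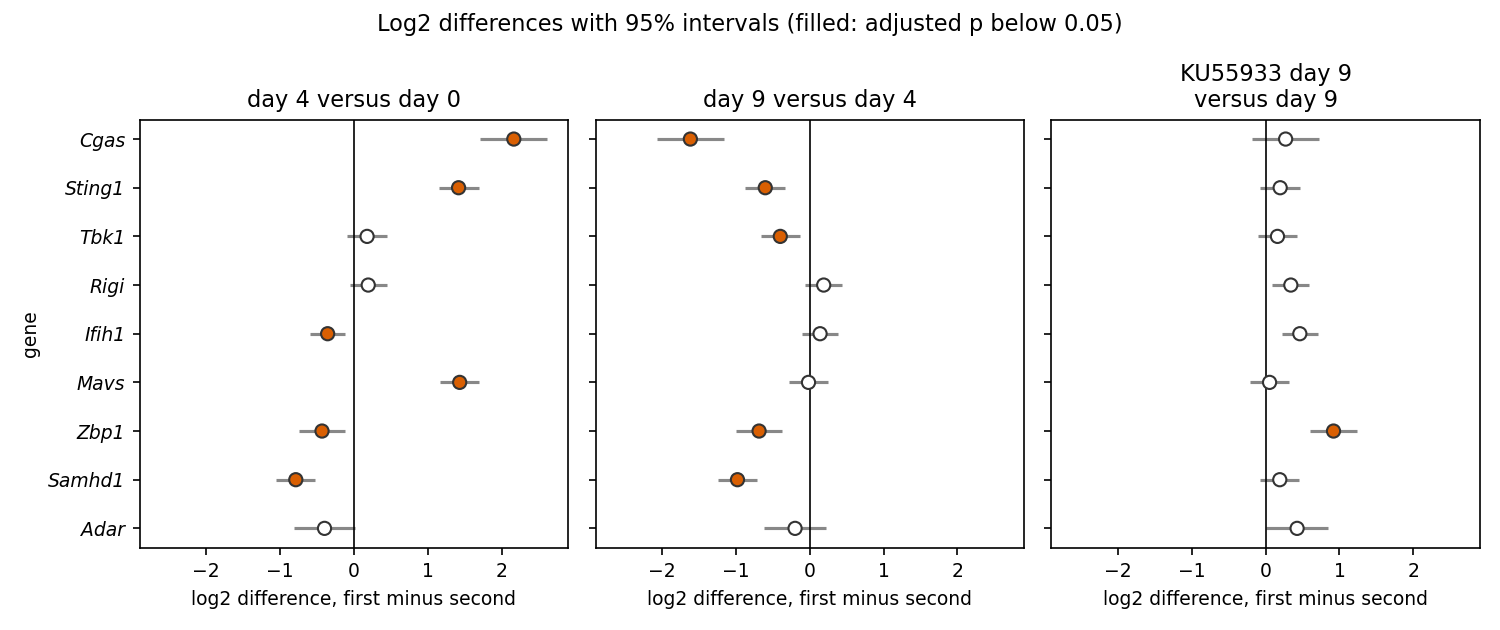
Log2 difference (horizontal axis, first group minus second) of the 9 sensing genes (vertical axis) for day 4 against day 0, day 9 against day 4, and KU55933 day 9 against day 9. Points are limma estimates, lines their 95% intervals, and filled points have an adjusted p below 0.05. In the right panel Zbp1 at 0.92 is the one filled point and all 9 points lie above 0.

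Set against day 4, the last time before the inhibitor was added, KU55933 cells at day 9 had 5 of 9 sensing genes called, against 26.0% of all genes. Rigi and Ifih1 rose (12.3% of all genes rose) and Cgas, Sting1 and Samhd1 fell (13.7% fell). With the dim filter at percentile 75, 44.3% of the 8360 genes kept were called. The count was 3 of 9 without day 4 replicate 2 or without KU55933 day 9 replicate 1, where 14.7% and 15.1% of all genes were called. Against day 0, 5 of 9 were called, against 59.1% of all genes. Cgas, Sting1, Rigi and Mavs rose (37.3% of all genes rose) and Samhd1 fell (21.9% fell). With centring Tbk1, Zbp1 and Adar were also called lower, which made 4 rising and 4 falling, with the split of all genes at 28.5% rising and 37.2% falling.

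Around the sensing genes, 104 further genes of the pathway were listed by role, and 87 of them were tested. For day 4 against day 0, 37.5% of all genes tested rose and 22.4% fell. Of 12 other DNA sensors and nucleases, 9 rose and 0 fell relative to day 0. Rnaseh2b, a subunit of the RNase that clears RNA from RNA-DNA hybrids, rose by 2.84 on the log2 scale (adjusted p = 6.48e-06), and Xrcc5, which encodes the Ku80 subunit of the DNA end-binding complex, by 2.25 (adjusted p = 2.94e-06). Banf1, whose product coats DNA and limits cGAS, rose by 1.83 (adjusted p = 1.14e-05). Of 15 STING and cGAS partners, 7 rose and 1 fell. Surf4 and Tmed10, cargo receptors of traffic between the endoplasmic reticulum and the Golgi, rose by 2.33 and 1.69 (adjusted p = 2.59e-06 and 7.48e-06), and Rnf5, a ubiquitin ligase that acts on STING, rose by 1.95 (adjusted p = 4.11e-06). With centring, 7 of the 12 rose and 1 fell, and 7 of the 15 rose and 4 fell. The shares of all genes were then 27.8% rising and 41.0% falling.

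Listed partners in the RNA route rose more often than they fell at day 4, against 37.5% of all genes rising and 22.4% falling. Of 17 partners of the RIG-I-like receptors, 10 rose and 0 fell at day 4, among them Tomm70a, the mitochondrial import receptor that contacts MAVS (log2 difference 1.73, adjusted p = 7.03e-06), and the mitofusins Mfn2 (1.47, adjusted p = 2.3e-05) and Mfn1 (1.32, adjusted p = 3.03e-05). Centring gave 8 rising and 2 falling, against 27.8% and 41.0% of all genes. Downstream of both routes more of the listed genes fell than rose. Of 10 kinases and transcription factors, 1 rose and 6 fell, led by Irf7, the amplifier of interferon production, with a log2 difference of -2.10 (adjusted p = 5.23e-06), and Irf1 with -1.96 (adjusted p = 7.68e-06). Of 10 genes of interferon and its receptor pathway, 3 rose and 5 fell, with Isg15 at -0.83 (adjusted p = 0.000216) and Irf9 at -0.91 (adjusted p = 0.000415). Of 12 RNA-directed effectors, 3 rose and 4 fell, with Eif2ak2, the kinase PKR that stops translation on double-stranded RNA, at 1.19 (adjusted p = 0.000126) and Oas2 at -2.02 (adjusted p = 2.66e-05). The median log2 difference was -0.55 for the kinases and transcription factors and -0.32 for the interferon pathway, against 0.08 over all genes. With centring, 0 of the kinases and transcription factors rose and 7 fell, 3 of the interferon pathway genes rose and 6 fell, and 3 of the effectors rose and 5 fell.

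Of 5 tested partners of ZBP1 in cell death, 3 rose and 0 fell at day 4 relative to day 0, where Zbp1 fell. With centring 2 rose and 1 fell. Of all genes, 37.5% rose and 22.4% fell, and with centring 27.8% rose and 41.0% fell. Mlkl, the pore-forming executioner of necroptosis, rose 10.5-fold (log2 difference 3.39, adjusted p = 1.52e-06), and Casp8, the protease that restrains necroptosis, rose 3.90-fold (log2 difference 1.96, adjusted p = 4.61e-06). Endosomal sensors, which detect nucleic acids outside the cytosol, fell in 3 of 6 cases and rose in 2, but with centring 4 fell and 0 rose. Tlr9, Tlr7 and their chaperone Unc93b1 had log2 differences of -1.73, -1.67 and -1.36 (adjusted p = 8.87e-05, 2.27e-05 and 4.53e-05). These 3 genes are also expressed by B cells and dendritic cells. In the same comparison 7 of 7 tested B cell markers fell. Of 9 tested dendritic cell markers 7 fell and 1 rose (Irf8). The part of those cells was not tested.

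RNA-directed effectors, the enzymes and binding proteins that act on foreign RNA, were mostly lower at day 9 than at day 4. Of 12, 7 fell and 0 rose, against 15.6% of all genes falling and 12.2% rising. Oasl2 was at 3.0 and 3.05 at day 9, below the array median, against 5.53 and 5.68 at day 4, which is at least 3.74-fold lower (adjusted p = 1.96e-05). Ifit2 was at least 1.65-fold lower (adjusted p = 0.000426) and Oas3 1.84-fold lower (adjusted p = 0.0035). Of the other DNA sensors and nucleases 5 of 12 fell and 0 rose, with Rnaseh2b 5.21-fold lower (adjusted p = 5.09e-05). Of the ZBP1 partners 2 of 5 fell and 1 rose: Mlkl was 2.46-fold and Ripk3 1.83-fold lower (adjusted p = 0.000411 and 0.00222), and Cflar was 1.77-fold higher (adjusted p = 0.00137). The RIG-I-like receptor partners went the other way, with 4 of 17 higher and 1 lower, including Rnf125 (log2 difference 0.78, adjusted p = 0.00157) and Zc3hav1 (0.65, adjusted p = 0.00316). In the other lists 1 rose and 3 fell of the 15 STING and cGAS partners, 0 and 2 of the 10 kinases and transcription factors, 0 and 3 of the 6 endosomal sensors, and 1 and 1 of the 10 interferon pathway genes. With centring 6 of 12 effectors fell and 0 rose, and 1 of 12 DNA sensors rose and 5 fell. The shares of all genes were then 12.3% falling and 17.6% rising.

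**Figure D3:**
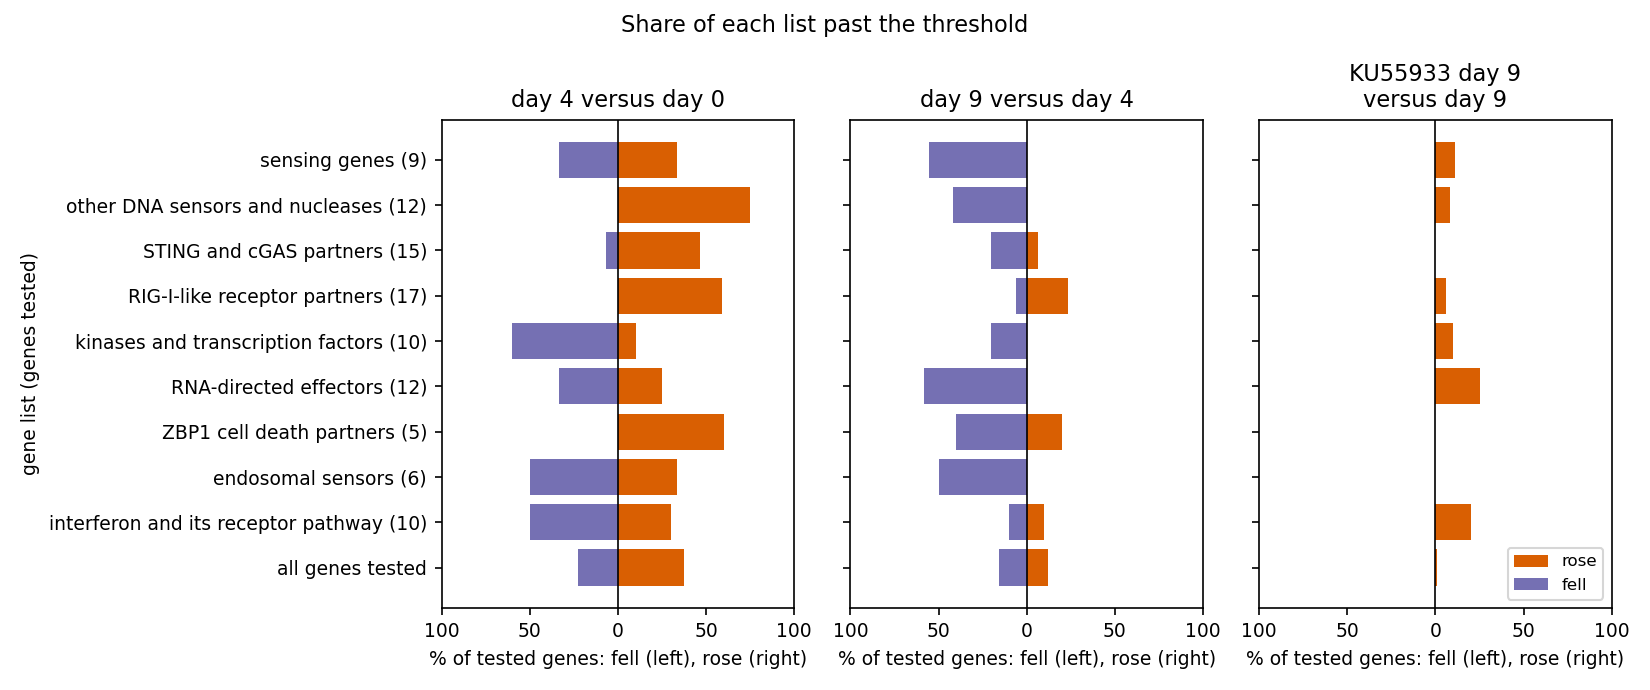
Share (horizontal axis, %) of the tested genes of each list (vertical axis, with the number tested) that rose (right) or fell (left) at an adjusted p below 0.05, in 3 comparisons, with all 13998 genes in the bottom row. For day 4 against day 0 the bar of other DNA sensors and nucleases (9 of 12) points right and that of kinases and transcription factors (6 of 10) points left. For KU55933 day 9 against day 9 all bars of the lists point right, led by 3 of 12 RNA-directed effectors.

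For KU55933 against day 9, 8 of the 87 further pathway genes were called, all 8 higher with the inhibitor. Of all genes, 0.750% were called higher. The lists were chosen with earlier results of these data known, so the 2 shares are not independent of that choice. None of the 8 calls held without KU55933 day 9 replicate 1 (1 of all 13998 genes was called then) or with no eBayes (6 called), and 2 of 8 held without KU55933 day 9 replicate 2 or without day 9 replicate 1. Of 12 RNA-directed effectors 3 rose, of 10 interferon pathway genes 2 rose, and 1 rose in each of the kinases and transcription factors (1 of 10), the RIG-I-like receptor partners (1 of 17) and the other DNA sensors and nucleases (1 of 12). None of the 15 STING and cGAS partners, the 5 ZBP1 partners or the 6 endosomal sensors was called. With centring 2 of 12 effectors, 2 of 10 interferon pathway genes, 1 of 10 kinases and transcription factors, 0 of 17 RIG-I-like receptor partners and 1 of 12 DNA sensors were called, all of them higher.

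Usp18, the protease that removes ISG15 and damps the interferon receptor, stood at 7.86 and 7.83 with KU55933 and at 5.83 and 5.76 at day 9. It was 4.15-fold higher with the inhibitor (adjusted p = 0.00316, and 0.0572 without KU55933 day 9 replicate 1). Its KU55933 values lay above those of all 6 other arrays. Oasl2, a member of the 2′-5′ oligoadenylate synthetase family, was at 5.04 and 5.07 against 3.0 and 3.05, at least 2.55-fold higher (adjusted p = 0.00316, and 0.0641 without KU55933 day 9 replicate 1). Ifi204, a DNA-binding protein of the interferon-inducible p200 family, was at 5.34 and 5.46 against 2.43 and 2.69, at least 3.24-fold higher (adjusted p = 0.0061). Its call was lost without day 9 replicate 1 (0.0556), KU55933 day 9 replicate 1 (0.0853) or KU55933 day 9 replicate 2 (0.08). Ifi204 has near-identical relatives on the same chromosome, and the probes may not tell them apart. The KU55933 mean of Oasl2 (5.05) lay below those of day 0 (5.27) and day 4 (5.61). That of Ifi204 (5.40) lay above both (3.89 and 4.81).

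Transcription factors of interferon signalling were among the 8. Irf7 was at 6.84 and 6.80 with KU55933 and at 5.64 and 5.55 at day 9, 2.34-fold higher (adjusted p = 0.00939), with adjusted p of 0.0898 and 0.0792 without day 9 replicate 1 or 2, and of 0.124 and 0.119 without KU55933 day 9 replicate 1 or 2. Irf9, the DNA-binding part of the complex that reads interferon signals, was at 7.12 and 7.26 against 6.15 and 6.13, 2.07-fold higher (adjusted p = 0.0172), with 0.149 and 0.0906 without the same day 9 arrays and 0.134 and 0.187 without the same KU55933 arrays. Day 9 values of Irf7 were the lowest of the 4 groups, and KU55933 values of both genes stood above day 4. Against day 0, the KU55933 mean was lower for Irf7 (6.82 against 8.23) and higher for Irf9 (7.19 against 6.87).

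The remaining 3 genes were called with less margin. Oas3 was 2.27-fold higher (adjusted p = 0.0199), Oasl1 2.66-fold higher (adjusted p = 0.0405) and Dhx58, which encodes the helicase LGP2 that regulates RIG-I and MDA5, 1.67-fold higher (adjusted p = 0.0459). Leaving out any array of day 4, day 9 or KU55933 day 9 lost the calls for Oas3 and Dhx58. Their adjusted p were then 0.0561 and 0.115 without either day 4 array, and went up to 0.191 (Oas3, without KU55933 day 9 replicate 1) and 0.309 (Dhx58, without KU55933 day 9 replicate 2). The call for Oasl1 was lost with any of the 8 arrays left out (0.051 without either day 0 array to 0.269 without KU55933 day 9 replicate 1). Genes listed as markers of other cells also differed in this comparison. Of 10 macrophage and monocyte markers 2 fell (Itgam by 1.44 on the log2 scale, adjusted p = 0.00316, and Lyz2 by 0.68, adjusted p = 0.0459). Of 10 neutrophil markers 1 rose (Ly6g, at least 2.98-fold, adjusted p = 0.0166), and of 9 tested dendritic cell markers 1 rose (H2-Ab1) and 1 fell (Itgax). At day 9 the mean of Itgam was 7.45, against 3.45 for Adgre1 and 4.66 for Csf1r of the same list. Whether the NK cells themselves expressed these genes was not tested. The calls for Lyz2, Ly6g, H2-Ab1 and Itgax were lost when any array of day 4, day 9 or KU55933 day 9 was left out (0.0525 for Ly6g and Itgax without either day 4 array to 0.324 for Lyz2 without day 9 replicate 1). That for Itgam was lost without KU55933 day 9 replicate 1 (0.0572). The part of those cells was not tested.

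**Figure D4:**
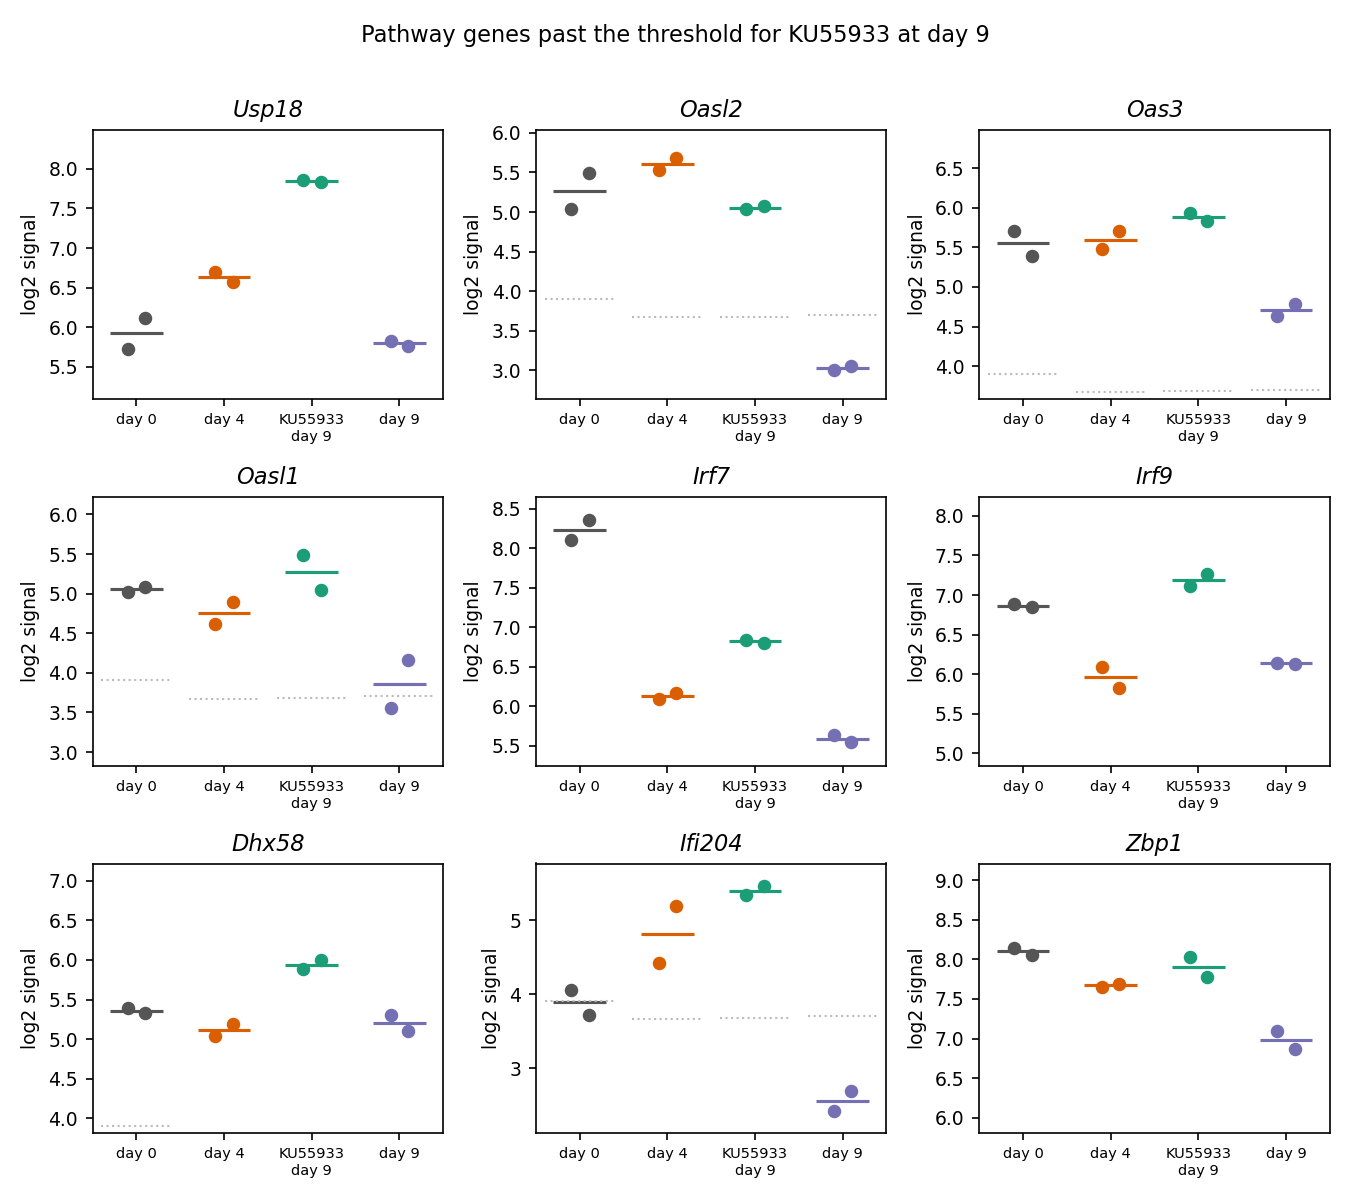
Log2 signal (vertical axis) on each array, by group (horizontal axis), of the 8 further pathway genes called for KU55933 day 9 against day 9, and of Zbp1. Points are arrays, coloured bars group means and dotted lines array medians. In every panel both KU55933 arrays lie above both day 9 arrays, with Usp18 at 7.86 and 7.83 against 5.83 and 5.76, and Ifi204 and Oasl2 lie below the array median at day 9.

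The patterns of the sensing genes over the 8 arrays were compared with those of the tested genes by Pearson's r. Predicted genes, antigen receptor segments and small RNA genes were left out. The values are a description over arrays that share their groups. Sting1 was most like Mlkl (r = 0.997) and B4galt5 (0.996), and Mavs most like Il2rb (0.999), which encodes a chain of the IL-2 receptor, and Dad1 (0.998). Cgas was most like Acaa2 (0.995) and Akr1b10 (0.989), Samhd1 most like Hnrnpdl (0.997) and Cd2 (0.995), and Rigi most like Armc7 (0.992) and Setd7 (0.989). The nearest genes to Zbp1, Gpr25 and Rgcc, reached 0.934 and 0.933. Those to Tbk1, Emc8 and Kcnab2, both reached 0.986, those to Ifih1, Herc3 and Rsu1, 0.973 and 0.971, and those to Adar, Tinagl1 and Mst1r, 0.974 and 0.967. Tinagl1 and Mst1r were dim, with group means from 3.59 to 4.05, near the array medians. Among the sensing genes themselves the highest r was 0.909, between Sting1 and Mavs, and the lowest was -0.852, between Mavs and Samhd1.

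The authors' deposited table of group averages lists 8 of the 9 measured sensing genes, all but Adar. In it 7 of the 8 have a false discovery rate p below 0.05 over all conditions, against 78.1% of its 11036 clusters, and Tbk1 has 0.0965.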

How the data were processed

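RNA of 8 NK cell samples was hybridised to Affymetrix Mouse Gene 2.0 ST arrays, 2 per group. The authors summarised the signals by RMA, per the submitters' processing notes, and the deposited values are log2 signals of 41345 transcript clusters. Per the submitters' processing notes the Transcriptome Analysis Console was also used. A second deposited table gives the authors' group averages with an ANOVA p-value and false discovery rate p-value for 11036 clusters, and was used only as a check. The versions and the annotation build were not given in the sources used here.

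Symbols came from the supplied platform annotation (23521 clusters name 1 symbol, 1820 several, 16004 none), and clusters naming several genes were left out. Each gene took its brightest cluster. Genes reaching the array median on at least 2 arrays (13998 of 22180) were fitted by lmFit and eBayes of limma 3.58.1 under R 4.3.3 (4 group means, 4 residual and 3.69 prior degrees of freedom), with Benjamini-Hochberg adjustment within each of 6 comparisons. Where a group lay below the array median on both arrays, the fold was bounded by that median. The code was tested on simulated data. The number of arrays limits the precision, and no batch was given in the labels.

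The members and gene lists were chosen with earlier results of these data known. Named genes are all members, up to 4 called genes with the lowest adjusted p per pathway list and comparison, and the 2 most similar genes per member. Marker genes named in the text were chosen after their values were seen. Samples were grouped by their labels. Same-numbered replicates of 2 groups deviated independently (r between -0.033 and 0.053 over genes), so the numbers were not used as pairs. Alternatives were the dim filter, cluster choice, scaling, variance model, array weights, a replicate block, each array left out, only the arrays compared, a 2-fold minimum and no eBayes. Figures were drawn with Python 3.11.15 and matplotlib 3.10.9.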

Additional observations from a re-analysis of the deposited data

How the results depend on the processing

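Of 29 called differences of the sensing genes, 11 kept direction and call under every alternative, and none of the 29 reversed. The number of sensing genes called, with arrays left out in turn, lay between 4 and 7 for day 4 against day 0 (6 with all arrays), 4 and 7 for day 9 against day 0 (7), 2 and 5 for day 9 against day 4 (5), 0 and 1 for KU55933 day 9 against day 9 (1), 3 and 5 for KU55933 day 9 against day 4 (5), and 4 and 6 for KU55933 day 9 against day 0 (5). A 2-fold minimum left 3, 3, 1, 0, 1 and 3 genes in the same order of comparisons. For KU55933 day 9 against day 9 the count was 0 with no dim filter, centring, quantile normalization, only the 4 arrays compared and no eBayes, and 2 with the filter at percentile 75 and with array weights. For KU55933 day 9 against day 0 it was 8 with centring and with quantile normalization. The cause of these moves was not tested.

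With the replicate number as a block, 6, 7, 4, 1, 5 and 5 sensing genes were called in the same order, and the one lost was Tbk1 for day 9 against day 4 (adjusted p = 0.0521). The block result rests on numbers that do not pair the samples.

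Uncalled differences that changed sign were those of Tbk1 and Rigi for day 4 against day 0 (-0.17 and -0.15 with centring, -0.26 and -0.23 with quantile normalization), and of Mavs for day 9 against day 4 (0.10 with centring, 0.023 with quantile normalization, -0.083 to 0.050 with an array left out). Mavs also changed to -0.016 for KU55933 day 9 against day 9 with centring, and lay between -0.029 and 0.10 against day 4 with an array left out. Against day 0, KU55933 differences lay between -0.17 and 0.049 for Tbk1 and between -0.46 and 0.12 for Adar with an array left out, and became -0.050 with centring and -0.12 with quantile normalization for Ifih1. Among the pathway genes, called rises also changed sign for KU55933 day 9 against day 0. Isg15 changed to -0.014 with centring and -0.025 with quantile normalization, and Ifnar1 to -0.0096 with quantile normalization. Uncalled differences of the pathway genes were not run under the alternatives.

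Over all genes, 138 were called for KU55933 day 9 against day 9. The count was 49 with no dim filter, 256 with the filter at percentile 75, 320 with a mean-variance trend, 333 with array weights, 83 with quantile normalization, 60 with the replicate block, 38 with only the 4 arrays, 56 with a 2-fold minimum and 6 with no eBayes. With an array left out it lay between 1 and 255. A 2-fold minimum also left 4045 of 8391 genes for day 4 against day 0, 3843 of 8112 for day 9 against day 0, 1240 of 3898 for day 9 against day 4, 1162 of 3640 for KU55933 day 9 against day 4 and 3966 of 8279 for KU55933 day 9 against day 0. For day 9 against day 4 the count lay between 2223 and 4933, and for KU55933 day 9 against day 4 between 1984 and 4693, with an array left out.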
